A study of Homo sapiens with 8 samples.

Results

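The 10 genes described here encode the core of non-homologous end joining (NHEJ) and were chosen by symbol: XRCC4, XRCC5, XRCC6, PRKDC, LIG4, NHEJ1, DCLRE1C, POLL, POLM and TP53BP1. All 10 were among the 21059 genes of the expression table. RNA was sequenced from MDA-MB-157, an established breast cancer line that is negative for the estrogen receptor (ER), cultured for 48 hours. The low glucose group (5 mM) and the high glucose group (25 mM) had 4 libraries each. According to the methods, both groups were kept in medium without serum and were conditioned at low glucose beforehand. The libraries come from 1 cell line, and none of the 8 is labelled as an osmotic control, so higher glucose and higher osmolarity cannot be told apart in this comparison. No source used here says that the 4 replicates of a group were separate cultures, so the tests below measure the spread between these libraries, which may be technical.

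NHEJ rejoins the ends of a DNA double-strand break directly, without a sister chromatid as template, and can act throughout the cell cycle. A ring of the XRCC5 (Ku80) and XRCC6 (Ku70) proteins slides onto each end and recruits the kinase DNA-PKcs, encoded by PRKDC. The nuclease Artemis (DCLRE1C) and the polymerases lambda (POLL) and mu (POLM) then make the ends fit, and DNA ligase IV (LIG4) seals them together with its partner XRCC4 and the XRCC4-like factor XLF (NHEJ1). 53BP1, encoded by TP53BP1, holds back the trimming of ends that would commit a break to homologous recombination, while BRCA1 favors that trimming.

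Values are counts per 1000000 reads (CPM) as scaled by the authors, and differences are high minus low glucose on log2(CPM + 1), tested with limma over all 21059 genes and adjusted by the Benjamini-Hochberg method. By this test 46.8% of all genes and 66.9% of the 11297 genes with a mean of at least 5 CPM passed an adjusted p of 0.05. The members can be read against the second share, since all 10 of them reached 5 CPM. The depth was 9721649 to 12482542 estimated reads per library, and a member was represented by 64 to 5912 of those reads in a library. The receptor label was borne out by ESR1, which was at most 0.170 CPM in every library, and of the other marker genes PTPRC and CDH5 were near 0 while KRT8, KRT18, VIM and ERBB2 were each above 30 CPM. PGR was at 4.76 and 5.35 CPM, and the endothelial marker PECAM1 had a mean of 2.13 CPM in high glucose, above that in low glucose. The first high glucose library stood apart. Its departures from the mean of the other 3 libraries of its group ran against transcript length, with a Spearman rho of -0.65 over 11223 genes. Taken the same way, rho was 0.25 to 0.47 for each of those 3, whose reference includes the first library. In the low glucose libraries it was -0.13 to 0.06. Member differences that rest on the first high glucose library are given with and without it, and for the related lists the calls were compared.

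The NHEJ transcripts that passed the test differed in both directions between low and high glucose. The ligase gene LIG4 and the Ku70 gene XRCC6 were higher, the polymerase genes POLL and POLM and the end-protection gene TP53BP1 were lower, and XRCC5, PRKDC, DCLRE1C, XRCC4 and NHEJ1 did not pass the test. That is 2 of 10 higher, where 33.6% of the genes at this level were higher, and 3 of 10 lower, where 33.3% were lower. The low and high glucose values did not overlap for the same 5 members, against 65.0% of genes at this level. The share of members called was thus not above that of genes of their abundance, and the median of their differences was -0.02, beside -0.01 over all genes. The differences ran from -1.08 for POLL to 0.71 for LIG4. RNA was measured in bulk, so a change in the number of cells of a kind and a change in RNA per cell cannot be told apart.

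**Figure D1:**
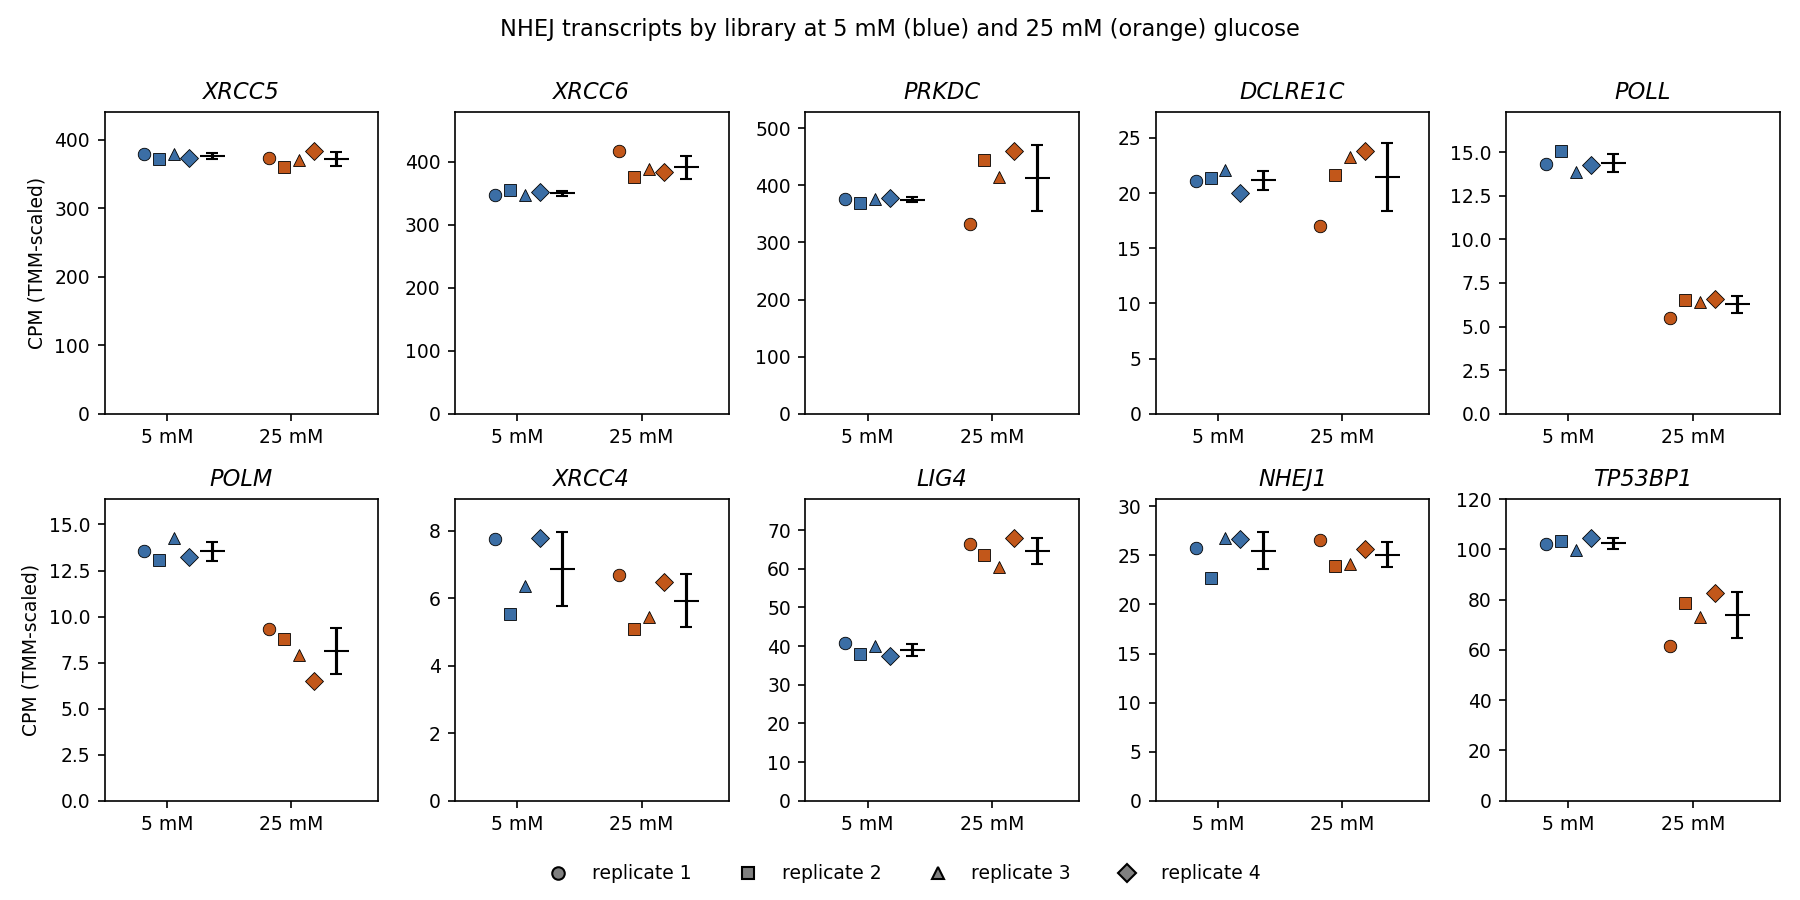
CPM of the 10 NHEJ transcripts in each library, in 1 panel per gene with the vertical axis starting at 0. Symbols mark the replicate, blue is 5 mM and orange is 25 mM glucose, and the black bar is the mean with its SD (n = 4). The groups separate for XRCC6, POLL, POLM, LIG4 and TP53BP1, and the first high glucose library lies lowest of its group for PRKDC, DCLRE1C, POLL and TP53BP1.

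The Ku genes were among the most abundant members in reads and differed little. XRCC5 (ENSG00000079246, chr2:216109348-216206293 in GRCh38.p14) was at 379, 371, 380 and 374 CPM in the low glucose libraries and at 373, 360, 370 and 383 CPM in the high glucose libraries. The groups overlapped, and the difference of -0.02 had a 95% interval of -0.07 to 0.04 (limma, adjusted p = 0.620). A change of XRCC5 larger than 0.07 in either direction lies outside that interval, which holds for this fit only. With the trend on GC content removed from each library, the difference was -0.09 ± 0.04 (SE; limma, adjusted p = 0.0615). XRCC6 (ENSG00000196419, chr22:41621295-41664041) was at 347, 355, 347 and 351 CPM in low glucose and at 417, 376, 388 and 384 CPM in high glucose. All 4 high glucose libraries were above all 4 low glucose libraries, the first of them by the most. The mean rose by 11.8%, from 350 ± 4.08 to 391 ± 17.9 CPM (SD, n = 4), a difference of 0.16 ± 0.03 (SE; limma, adjusted p = 0.00688), and it was 0.13 without the first high glucose library (adjusted p = 0.00102). Of the XRCC6 transcript, 85.9% has a copy of at least 95% identity in the pseudogene XRCC6P2, which is not among the genes of the table, and how reads from such copies were assigned is not given in the sources used here.

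The Ku ring pairs XRCC5 with XRCC6, and the ratio of their transcripts differed slightly between the groups without passing the test. The ratio of XRCC5 to XRCC6, taken within each library as a difference of log2(CPM + 1), went from 0.10 ± 0.03 to -0.07 ± 0.07 (SD, n = 4). XRCC5 was thus the more abundant in reads at low glucose in all 4 libraries and XRCC6 the more abundant at high glucose in all 4, though 1 of these, at -0.0023, was close to parity. The change of -0.18 had p = 0.0286 by an exact 2-sided permutation test, the smallest that the 70 assignments of 8 libraries allow. After adjustment over the 6 ratios tested, p was 0.0571, so it did not pass. For any of the 6 ratios, that smallest p can pass after adjustment only if several other ratios reach it too. An adjusted p of 0.0571 therefore does not show that a ratio was unchanged. Without the first high glucose library the change was -0.15 (exact permutation p = 0.0286 before adjustment).

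PRKDC (ENSG00000253729, chr8:47773111-47960136), which encodes the catalytic kinase subunit, was the transcript whose reading hinged on 1 library. It was at 377, 368, 376 and 378 CPM in low glucose and at 332, 445, 415 and 460 CPM in high glucose. The low glucose libraries lay within a narrow band, the first high glucose library was below it, and the other 3 were above it. With all 8 libraries the difference was 0.13, with an interval of -0.11 to 0.36 (limma, adjusted p = 0.342). Without the first high glucose library it was 0.23 (adjusted p = 0.00251). With 13458 bases its canonical transcript is the longest of the 10, and when the trend on transcript length was removed from each library the difference stayed at 0.13 and the adjusted p was 0.00567. The part of the length trend in the low value of that library was not tested otherwise. MCM4, a subunit of the replicative helicase whose start lies 805 bases from that of PRKDC on the other strand, rose from 136 ± 3.41 to 213 ± 2.91 CPM (SD, n = 4), by 0.65 (limma, adjusted p = 1.99e-06), and its first high glucose library did not stand apart.

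DCLRE1C (ENSG00000152457, chr10:14897359-14954432), whose product Artemis opens hairpins and trims overhangs once DNA-PKcs has activated it, was at 21.1, 21.4, 22.1 and 20.03 CPM in low glucose. In high glucose it was at 17.0, 21.6, 23.3 and 23.8 CPM, with replicate 1 below all low glucose values and replicates 3 and 4 above them. The difference was 0.01, with an interval of -0.23 to 0.25 (limma, adjusted p = 1), so a change within that interval was not excluded. Without the first high glucose library it was 0.11 (adjusted p = 0.104). Relative to PRKDC, its activating kinase, DCLRE1C went from -4.09 ± 0.06 to -4.21 ± 0.08 (SD, n = 4), a change of -0.12 that gave p = 0.0571 by the exact permutation test and 0.0686 after adjustment. DCLRE1C shares 1.04% of its annotated exon bases with SUV39H2, a histone methyltransferase gene on the other strand, which rose by 0.24 (limma, adjusted p = 0.0115).

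The gap-filling polymerases fell more than any other member. Both belong to the X family, which can extend ends that pair by only a few bases, POLM even without pairing. POLL (ENSG00000166169, chr10:101578882-101588270) was at 14.3, 15.1, 13.8 and 14.3 CPM in low glucose and at 5.51, 6.54, 6.43 and 6.58 CPM in high glucose. The groups were far apart, with each high glucose library between 38.3% and 45.7% of the low glucose mean. The mean fell by 56.5%, from 14.4 ± 0.510 to 6.26 ± 0.508 CPM (SD, n = 4), and the log2 difference was -1.08 ± 0.06 (SE; limma, adjusted p = 1.45e-05). Of all genes with at least 5 CPM, 5.03% differed by more in either direction.

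POLM (ENSG00000122678, chr7:44072062-44082530) was at 13.6, 13.1, 14.3 and 13.3 CPM in low glucose and at 9.32, 8.77, 7.92 and 6.49 CPM in high glucose. The groups did not overlap, but the high glucose libraries spread over 15.2% of their mean (SD), the widest of the members at high glucose, against 3.86% in low glucose. The mean fell by 40.1%, from 13.5 ± 0.523 to 8.12 ± 1.23 CPM (SD, n = 4), and the log2 difference was -0.68 ± 0.10 (SE; limma, adjusted p = 0.00127). Both polymerases rested on few reads, down to 74 in a library for POLL and 73 for POLM. The ratio of POLL to POLM went from 0.08 ± 0.10 to -0.32 ± 0.28 (SD, n = 4), a change of -0.40 that gave p = 0.0571 by the exact permutation test and 0.0686 after adjustment. The larger fall of POLL was therefore not separated from that of POLM over all 8 libraries. The fourth high glucose library had a ratio of 0.02, among the low glucose values. Without it the change was -0.51 (exact permutation p = 0.0286, the smallest possible there). Without the first, whose ratio was -0.67, the change was -0.29 (exact permutation p = 0.0571). Neither p is adjusted over the 6 ratios.

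The sequences around the starts of both polymerase genes are shown because these transcripts fell the most and because POLL shares its window with another gene. Each is 300 bases of RefSeq on GRCh38.p14, from 250 bases before the first listed start to 50 bases from it, written 5′ to 3′ in the direction of the gene, and both genes lie on the minus strand. Capitals mark CCGGAAG, a core recognized by transcription factors of the ETS family, or its reverse complement CTTCCGG. The windows are chr10:101588221-101588520 for POLL and chr7:44082481-44082780 for POLM.
POLL: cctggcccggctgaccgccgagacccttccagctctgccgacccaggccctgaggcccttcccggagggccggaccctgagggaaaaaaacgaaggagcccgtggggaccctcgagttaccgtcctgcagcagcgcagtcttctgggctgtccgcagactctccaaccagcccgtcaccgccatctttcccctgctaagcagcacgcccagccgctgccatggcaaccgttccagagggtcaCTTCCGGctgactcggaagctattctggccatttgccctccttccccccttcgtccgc
POLM: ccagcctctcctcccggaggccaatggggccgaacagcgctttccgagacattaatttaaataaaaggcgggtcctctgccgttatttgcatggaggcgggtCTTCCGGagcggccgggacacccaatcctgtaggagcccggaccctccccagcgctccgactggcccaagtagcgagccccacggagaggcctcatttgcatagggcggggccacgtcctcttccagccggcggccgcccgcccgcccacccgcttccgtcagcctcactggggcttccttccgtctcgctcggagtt
Counted from the base before the start as -1, the capitals begin at -8 in the POLL window and at -148 in the POLM window. The start of DPCD, a gene linked to the formation of cilia, lies on the other strand 51 bases from that of POLL, so that the POLL window covers both starts. DPCD fell as well, from 11.2 ± 1.18 to 6.64 ± 0.826 CPM (SD, n = 4), by 0.68 on the log2 scale (limma, adjusted p = 0.00138), with all 4 high glucose libraries below all 4 low glucose ones. The exons of DPCD cover 4.48% of the annotated exon bases of POLL, and with no strand setting given for the counting, reads from that stretch could count for either gene.

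Ligation is the last step, and its 3 members did not move together. LIG4 (ENSG00000174405, chr13:108207442-108218349), the ligase of this pathway, was at 40.7, 37.8, 40.1 and 37.4 CPM in low glucose and at 66.4, 63.6, 60.4 and 68.0 CPM in high glucose. Every high glucose library was above every low glucose library, between 155% and 174% of the low glucose mean. The mean rose 1.66-fold, from 39.0 ± 1.61 to 64.6 ± 3.34 CPM (SD, n = 4), and the log2 difference was 0.71 ± 0.05 (SE; limma, adjusted p = 2.06e-05). It was 0.69 to 0.74 when any 1 library was left out.

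XRCC4 (ENSG00000152422, chr5:83077547-83374473), which stabilizes ligase IV, was the member with the fewest reads, 64 to 107 in a library. It was at 7.75, 5.55, 6.37 and 7.79 CPM in low glucose and at 6.71, 5.10, 5.44 and 6.49 CPM in high glucose. These ranges overlapped, and the difference of -0.18 had an interval of -0.48 to 0.13 (limma, adjusted p = 0.312), wide enough to hold both no change and a sizeable fall. NHEJ1 (ENSG00000187736, chr2:219069357-219160815) was at 25.7, 22.7, 26.8 and 26.7 CPM in low glucose and at 26.6, 23.9, 24.1 and 25.6 CPM in high glucose. The libraries of both groups were intermixed, and the difference was -0.02, with an interval of -0.17 to 0.12 (adjusted p = 0.835). A predicted transcript on the same strand, AC068946.1, covers 19.5% of the NHEJ1 exon bases and rose from 0.568 ± 0.149 to 2.51 ± 0.218 CPM (SD, n = 4), by 1.17 (adjusted p = 3.23e-05), and reads in the shared stretch could have been split between them.

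Because ligase IV depends on XRCC4 for its stability, the balance of their transcripts was compared within libraries. The ratio of XRCC4 to LIG4 went from -2.36 ± 0.20 to -3.25 ± 0.12 (SD, n = 4) without overlap, the largest shift of the 6 ratios. The change of -0.89 gave p = 0.0286 by the exact permutation test, the smallest possible, and p = 0.0571 after adjustment. The ratio of NHEJ1 to XRCC4 changed by 0.16 (exact permutation p = 0.171 before and after adjustment) and overlapped between the groups.

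**Figure D2:**
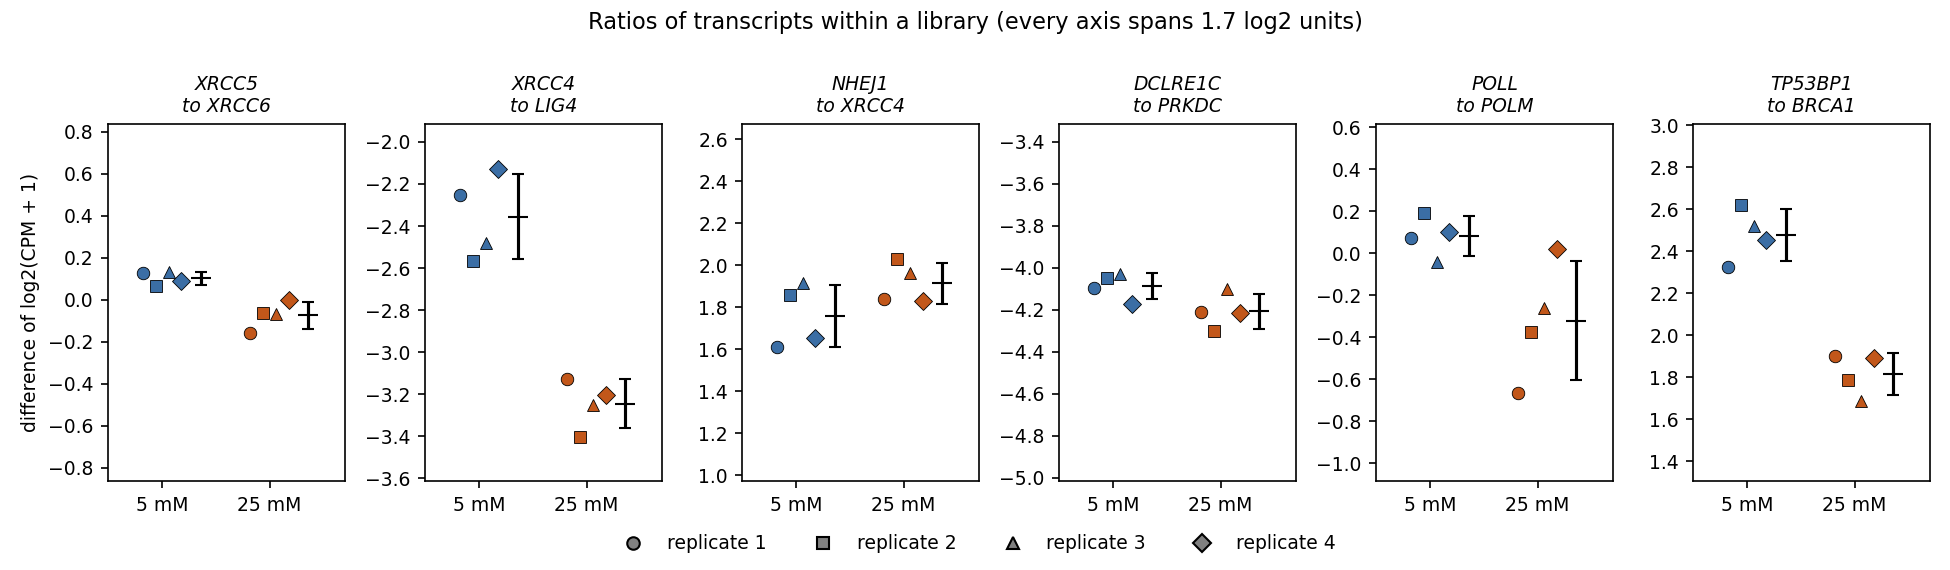
Ratios of transcripts within each library, as the difference of log2(CPM + 1) of the first gene and the second, in 1 panel per pair. Every vertical axis spans the same 1.7 log2 units, symbols mark the replicate, and the black bar is the mean with its SD (n = 4). The groups do not overlap for XRCC5 to XRCC6, XRCC4 to LIG4 and TP53BP1 to BRCA1, and the shift of XRCC4 to LIG4 from -2.36 to -3.25 is the largest.

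The LIG4 window is shown because LIG4 rose the most of the members and because its start region, too, holds the start of another gene. It covers chr13:108218300-108218599 on the minus strand and is written as for the polymerases, with the same run in capitals, which begins at -142.
LIG4: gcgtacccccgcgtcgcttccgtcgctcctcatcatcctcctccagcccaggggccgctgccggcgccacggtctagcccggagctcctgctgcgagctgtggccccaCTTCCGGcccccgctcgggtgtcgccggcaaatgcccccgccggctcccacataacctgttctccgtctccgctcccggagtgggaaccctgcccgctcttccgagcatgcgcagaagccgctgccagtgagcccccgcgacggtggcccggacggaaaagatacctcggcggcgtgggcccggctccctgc
The neighbor is ABHD13, whose start lies 43 bases away on the other strand. ABHD13 was at 31.7, 31.6, 28.5 and 29.4 CPM in low glucose and at 36.6, 32.5, 35.3 and 34.8 CPM in high glucose. It was higher in all 4 high glucose libraries, like LIG4, but by 0.20 (limma, adjusted p = 0.0144), with an interval of 0.08 to 0.31, beside 0.61 to 0.82 for LIG4. Both transcripts are poor in GC, with 34.0% for ABHD13 and 35.2% for LIG4.

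TP53BP1 (ENSG00000067369, chr15:43403061-43510640) was at 102, 103, 99.5 and 105 CPM in low glucose and at 61.4, 78.6, 72.9 and 82.8 CPM in high glucose. All high glucose libraries were lower, the first of them by the most. The mean fell by 27.8%, from 102 ± 2.13 to 73.9 ± 9.28 CPM (SD, n = 4), and the log2 difference was -0.47 ± 0.09 (SE; limma, adjusted p = 0.0036). Without the first high glucose library the fall was smaller, at -0.39, and the spread too (adjusted p = 0.000661). TUBGCP4, a gene of the gamma-tubulin complex on the other strand, covers 28.8% of the TP53BP1 exon bases and moved the opposite way, from 27.9 ± 2.40 to 44.5 ± 5.89 CPM (SD, n = 4), by 0.65 (adjusted p = 0.00229). Reads from the shared stretch could not be assigned without strand, and how far this touches either value was not tested.

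The balance of TP53BP1 to its opponent BRCA1 went from 2.48 ± 0.12 to 1.82 ± 0.10 (SD, n = 4) without overlap. The change of -0.66 gave p = 0.0286 by the exact permutation test, the smallest possible, and 0.0571 after adjustment. BRCA1 itself was at 17.6 ± 1.64 and 20.3 ± 3.07 CPM, a difference of 0.19 with an interval of -0.10 to 0.48 (limma, adjusted p = 0.251). Without the first high glucose library the change of the ratio was -0.69, with differences of -0.39 for TP53BP1 and 0.30 for BRCA1, which was then called (adjusted p = 0.0143). The TP53BP1 window, chr15:43510591-43510890 on the minus strand, is shown as the start region of the third member that fell, with the same run in capitals, which begins at -46.
TP53BP1: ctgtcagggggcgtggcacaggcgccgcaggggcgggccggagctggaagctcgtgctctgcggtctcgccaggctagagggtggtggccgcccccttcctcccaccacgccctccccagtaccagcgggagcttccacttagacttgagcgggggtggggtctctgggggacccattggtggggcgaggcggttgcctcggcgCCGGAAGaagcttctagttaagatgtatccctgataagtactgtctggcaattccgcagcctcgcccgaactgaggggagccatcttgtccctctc
The start of MAP1A, a gene for a microtubule protein of neurons, lies 314 bases away on the other strand. MAP1A was low, at 2.85 ± 0.248 and 3.28 ± 0.472 CPM, and did not pass the test (limma, adjusted p = 0.284).

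**Figure D3:**
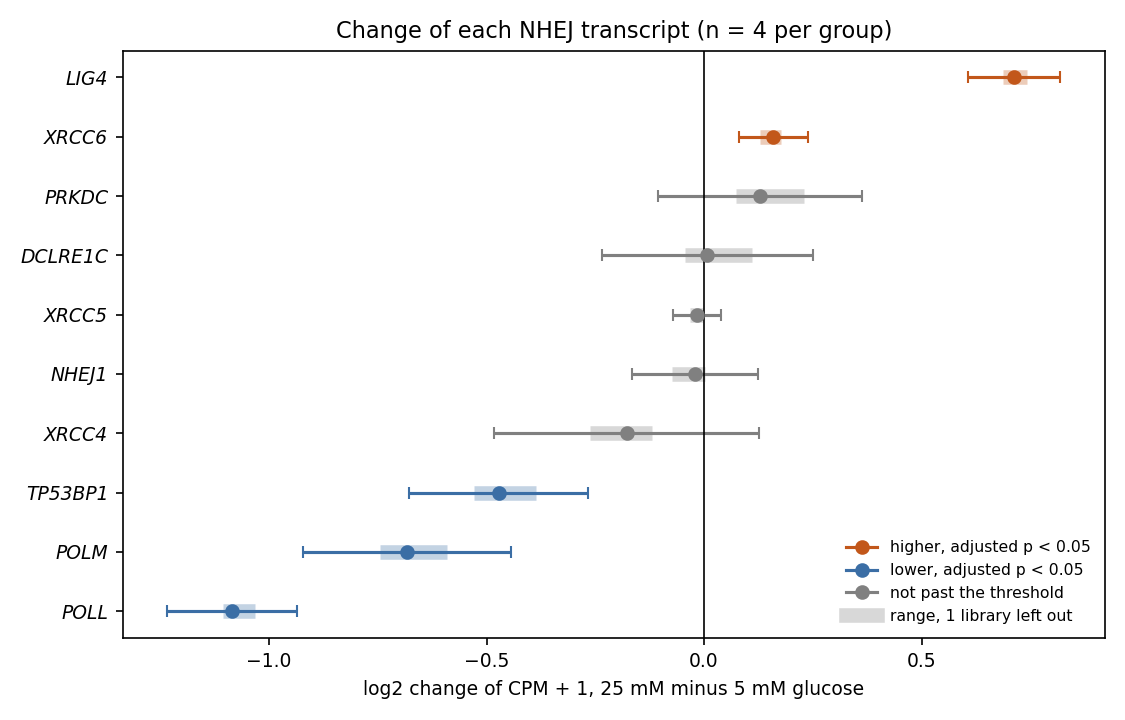
Difference of log2(CPM + 1), high minus low glucose, for each member, ordered by size. Points are the limma estimates from 4 libraries per group, thin bars their 95% intervals, and thick pale bars the range when 1 library at a time is left out. POLL (-1.08), POLM (-0.68) and TP53BP1 (-0.47) lie below 0, XRCC6 (0.16) and LIG4 (0.71) above it, and the interval of the other 5 covers 0.

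The start regions can be compared across the members with an entry in the promoter table, which are 8 of 10. CCGGAAG or its reverse complement was present in 5 of these 8, namely POLL, POLM, XRCC4, LIG4 and TP53BP1, and in 10.7% of all 27305 windows of the same length. The 4 printed above are the members that differed most between the groups, but they include risers and fallers, and XRCC4 with the same run did not pass the test. The GC box GGGCGG, on either strand, was in 6 of 8 members and in 44.6% of all windows. CCAAT was in 5 of 8 and in 35.7%, and the E-box CACGTG, read by MYC among others, was in 0 of 8 and in 7.43%. Matches of different motifs may overlap, and a match describes letters and not a bound factor.

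XRCC4 and XRCC6 also have a neighbor that starts on the other strand. TMEM167A, 153 bases from XRCC4, rose by 0.10 (limma, adjusted p = 0.00237), while XRCC4 was not called. DESI1, 252 bases from XRCC6, fell by 0.25 (adjusted p = 0.00302), while XRCC6 rose. Of the 6 members with such a neighbor, both genes of the pair were called in the same direction for POLL and LIG4, and in opposite directions for XRCC6. Of genes of at least 5 CPM, 33.6% were higher and 33.3% lower, and the pairs were not tested against these. POLL and its neighbor DPCD also share exon bases.

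Compared per kilobase of the canonical transcript, the members fell into tiers. At low glucose XRCC6 was at 165 ± 1.92 CPM per kilobase, XRCC5 at 111 ± 1.19 and PRKDC at 27.9 ± 0.328 (SD, n = 4), each separated from the next. TP53BP1 at 9.87 ± 0.205 and LIG4 at 9.80 ± 0.404 came next and overlapped. The lowest tier held POLL at 5.17, POLM at 4.83, XRCC4 at 4.29, DCLRE1C at 3.55 and NHEJ1 at 3.18 CPM per kilobase. In this tier neighbors in the order overlapped, except that DCLRE1C lay above NHEJ1. Such levels depend on the transcript taken: the canonical one of NHEJ1 has 8020 bases and its shortest coding one 1954, which would put NHEJ1 at 13.04 CPM per kilobase. The shortest coding ones would put PRKDC at 698, XRCC5 at 621, TP53BP1 at 229 and XRCC6 at 179 CPM per kilobase. The order of the first places thus holds for the canonical transcripts only.

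At high glucose the order changed in the places of the called members. LIG4 moved to the fourth place, at 16.2 ± 0.838 CPM per kilobase, above TP53BP1 at 7.13 ± 0.895, and their ranges no longer overlapped. POLL moved from the sixth to the last place, at 2.25 ± 0.183, and POLM to the ninth, at 2.89 ± 0.439, and from the sixth place down each member overlapped the next. XRCC6, XRCC5 and PRKDC kept their first 3 places. The spread was larger in high glucose for 8 of the 10 members, all but XRCC4 and NHEJ1, and for 7 without the first high glucose library. The SD was 2.58% to 15.2% of the mean in high glucose, and in low glucose it was 1.07% to 7.41% for 9 members and 16.01% for XRCC4. Without that library the spread in high glucose went from 13.9% to 5.19% for PRKDC, from 14.4% to 5.04% for DCLRE1C, from 12.6% to 6.35% for TP53BP1, from 4.58% to 1.52% for XRCC6 and from 8.12% to 1.14% for POLL, which is below its 3.54% in low glucose.

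The size of the differences went along with base composition at its extremes. POLL and POLM have the most GC of the 10 canonical transcripts, at 60.1% and 60.3%, and fell the most, and LIG4 has the least, at 35.2%, and rose the most. In between there was no such order, since XRCC4 at 35.7% did not rise and TP53BP1 at 45.7% fell while PRKDC at 45.1% did not. With the trend on GC removed from each library, the differences of POLL, POLM and LIG4 were -0.95, -0.55 and 0.56, all still past the threshold, and XRCC4 passed it at -0.33 (limma, adjusted p = 0.0298).

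**Figure D4:**
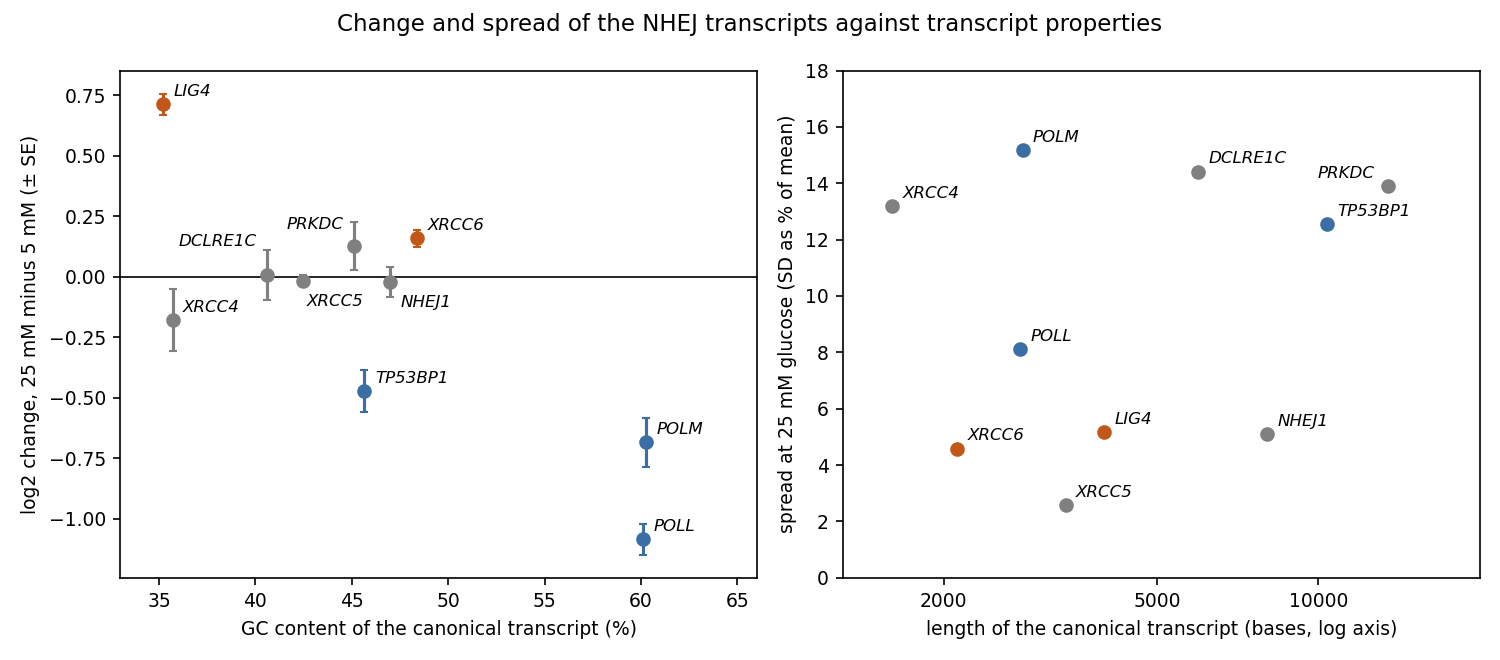
Left, difference of log2(CPM + 1), high minus low glucose, of each member (± SE) against the GC content of its canonical transcript. Right, spread of the 4 high glucose libraries (SD as percent of the mean) against transcript length on a log axis. Orange is higher, blue is lower and gray is not past the threshold. POLL and POLM stand alone at 60% GC. PRKDC, DCLRE1C and TP53BP1 among the longer transcripts spread by 12.6% to 14.4%, or by 5.04% to 6.35% without the first high glucose library. NHEJ1, also long at 8020 bases, spread by 5.09%, and the shorter POLM and XRCC4 by 15.2% and 13.2%.

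Genes that work beside the core were taken as 4 lists. Of 37 genes 36 were in the table, and 9 were higher and 10 lower, with a median difference of 0.05, beside -0.01 over all genes. The 19 of 36 called stand beside 46.8% of all genes and 66.9% of genes of at least 5 CPM, so that the lists were not called more often than genes of that level. In the accessory list, 1 of 7 was higher and 2 were lower, with a median of 0.05 (33.6% higher and 33.3% lower among genes of at least 5 CPM). CYREN, a small regulator that binds Ku, fell by 0.48 (limma, adjusted p = 0.000147), and APLF, a scaffold for XRCC4, fell by 0.60 (adjusted p = 0.0159). TDP1, which removes adducts from 3′ ends, rose by 0.16 (adjusted p = 0.0205).

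Among 13 genes that act with 53BP1, 3 were higher and 2 lower, with a median of 0.11, beside 66.9% of genes of at least 5 CPM called in either direction. SHLD3, a subunit of shieldin, which 53BP1 recruits to protect ends, rose from 3.23 ± 0.586 to 6.08 ± 0.458 CPM (SD, n = 4), by 0.75 (limma, adjusted p = 0.0013). RNF168, the ubiquitin ligase that marks chromatin for 53BP1, rose by 0.53 (adjusted p = 0.00156), and H2AX, the histone variant phosphorylated at breaks, by 0.62 (adjusted p = 0.0134). ATM, the kinase that phosphorylates it, fell from 73.0 ± 5.27 to 43.9 ± 8.47 CPM (SD, n = 4), by 0.74 (adjusted p = 0.00456). H2AX was at 34.7 CPM in the first high glucose library, against 20.1 to 25.1 CPM in the others of its group. ATM was at 32.1 CPM there, against 45.0 to 52.3 CPM. Both stayed called without that library.

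Genes of end resection, the step that 53BP1 restrains, gave 4 of 9 higher and 2 lower, with a median of 0.19, or 0.30 without the first high glucose library. Over all genes of at least 5 CPM, 33.6% were higher and 33.3% lower, and the count was not tested against these. RBBP8, which encodes the nuclease cofactor CtIP, was at 35.3, 31.6, 32.96 and 26.7 CPM in low glucose and at 56.0, 56.0, 53.3 and 56.3 CPM in high glucose. It rose by 0.80 without overlap (limma, adjusted p = 0.000186). BARD1, the partner of BRCA1, rose by 0.61 (adjusted p = 0.000414) and EXO1, a nuclease for long resection, by 0.47 (adjusted p = 0.000298). NBN, of the complex that first senses and trims ends, fell by 0.26 (adjusted p = 0.000266).

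In alternative end joining, which uses short homologies when NHEJ is not engaged, 1 of 7 was higher and 4 were lower, with a median of -0.13. The 5 of 7 called are near the 66.9% of genes of at least 5 CPM. FEN1, a flap nuclease that also serves replication, rose by 0.61 (limma, adjusted p = 0.000139). LIG3 fell by 0.38 (adjusted p = 0.00515), LIG1 by 0.32 (adjusted p = 0.0133) and PARP1 by 0.13 (adjusted p = 0.00689). Of the 3 DNA ligase genes, LIG4 was thus higher and LIG1 and LIG3 were lower. Without the first high glucose library, RIF1, BRCA1 and POLQ, which are named here after their values were seen, were called as well, and no call in the 4 lists was lost. The other called genes of the lists, likewise outside the naming rule, were SHLD1 (-0.41), DNA2 (0.44), RAD50 (-0.45) and XRCC1 (-0.36).

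**Figure D5:**
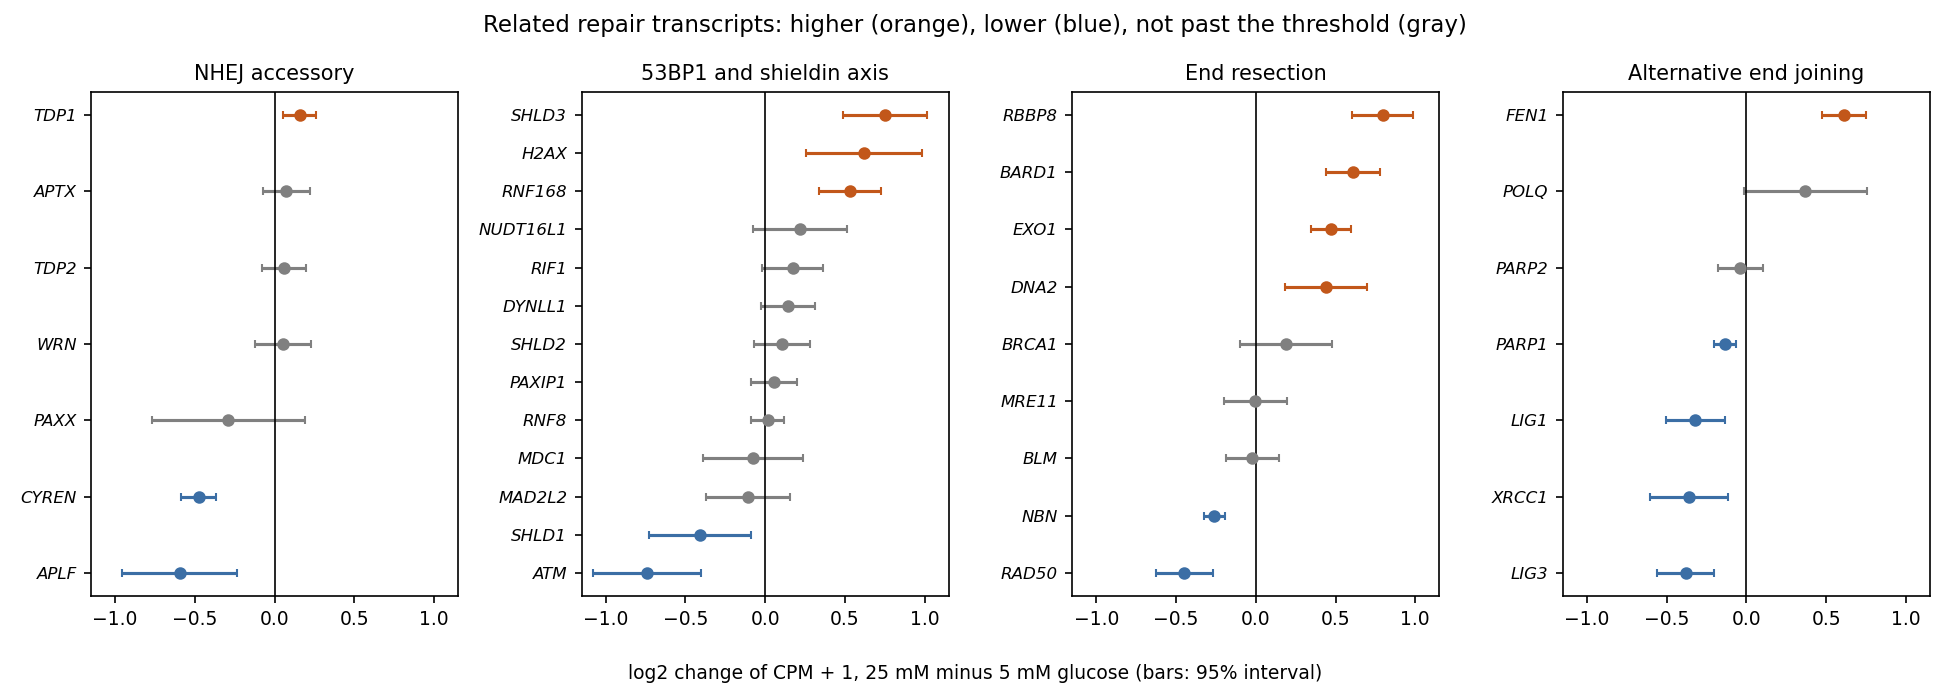
Difference of log2(CPM + 1), high minus low glucose, for the 36 genes of the 4 related lists, in 1 panel per list, with 95% intervals from limma (4 libraries per group). Orange is higher, blue is lower and gray is not past the threshold. RBBP8 (0.80), SHLD3 (0.75) and H2AX (0.62) lead the rises and ATM (-0.74) and APLF (-0.60) the falls.

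POLL, the member that differed most, was also compared with the other 11296 genes of at least 5 CPM over the 8 libraries. The genes whose log2(CPM + 1) was most like it were ACLY, which makes cytosolic acetyl-CoA for lipid synthesis, with Pearson r = 0.999, CTC1, of a complex at telomeres, with r = 0.999, and OLMALINC, a long noncoding RNA, with r = 0.999. ACLY went from 561 to 384 CPM, CTC1 from 20.7 to 14.01 and OLMALINC from 70.04 to 28.8. High correlations with POLL are common here, since 1297 genes were above 0.95, and all of them share the 8 libraries and the contrast between the groups.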

How the data were processed

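RNA-seq of 4 low glucose and 4 high glucose libraries was grouped by the labels. The values are those of a single table deposited by the authors, in CPM (per 1000000 reads) after TMM scaling in edgeR, and per the labels the processing notes name edgeR and the build hg38. The methods describe hg19, TopHat and a stranded library kit for tumors, and restate no kit for the cell lines. The build of the table is thus not settled, and the counting tool and its use of strand are not given in the sources used here. A filter at 0.5 CPM is described, but 3521 of the 21059 genes were below it in every library, and 18 duplicate Y copies of pseudoautosomal genes were left out.

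Only 72.2% to 73.6% of low values (below 200 reads) were whole multiples of 1 read within 0.01, so reads were not recovered, no count test was run, and depth was estimated from the step of 1 read. A value of 3 reads equals 0.212 to 0.267 CPM, which covers counting error only.

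All genes were fitted on log2(CPM + 1) with limma 3.58.1 in R 4.3.3 (eBayes with trend, 2-sided, no covariate, Benjamini-Hochberg over 21059 genes). Fold changes on this scale understate those of low genes. The code of the fit was checked on simulated counts with known changes. These had no length trend and far fewer changed genes than were called here, so the check does not cover those features. Ratios were compared with exact permutation tests over 70 assignments. Length, GC and exon overlap came from the GENCODE canonical transcripts (20730 identifiers matched), shared sequence from blastn 2.17.0+ (at least 95% identity over 100 bases), and gene positions and start windows from RefSeq on GRCh38.p14. Neighbors start within 1000 bases on the other strand. Levels per kilobase divide the CPM by the canonical length.

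Genes named are the 10 members, at most the 4 of each list with the smallest adjusted p, neighbors, the 3 genes most like the member that differed most, markers and BRCA1. A gene of the accessory list is not reported here and is left out of its counts. Members and lists were chosen with earlier results of these data known. Same-numbered libraries did not deviate together (correlations of -0.04 to 0.07), so the numbers were not taken as pairs. Alternatives were the pseudocount, minima of 1 and 5 CPM, the scaling, the replicate block, each library left out, and length or GC trends removed. After the data were seen, the related lists and the spread of the members were recomputed without the first high glucose library.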

Additional observations from a re-analysis of the deposited data

Results flagged for a closer look

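Of 34 groups of 4 libraries examined, 2 held a library whose gap to its nearest neighbor exceeded Dixon's critical share of the range, and chance alone gives about 1.7. POLL in the first high glucose library, at 5.51 CPM, lay below the 6.43 to 6.58 CPM of the other 3, a gap of 0.866 of the range. All 4 of these values were below the low glucose libraries, and POLL differed by -1.03 without that library (limma, adjusted p = 1.34e-05). The estimated reads of the fourth low glucose library, 12104245 against 10389651 to 10622968 in the others of its group, had a gap of 0.864.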

How the results depend on the processing

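XRCC6, LIG4, POLL, POLM and TP53BP1 kept their direction and stayed past the threshold under all 16 alternatives, including the replicate block, and the genes called stayed within 1.5 times. XRCC5 and NHEJ1 changed sign near 0 with equal totals (0.0088 and 0.0031) and with median-of-ratios scaling (0.026 and 0.020), and DCLRE1C with the GC trend (-0.087) or the length trend (-0.040) removed. XRCC4 passed at -0.33 with the GC trend removed, and PRKDC at 0.13 with the length trend removed. XRCC5 was at -0.087 with the GC trend removed and did not pass. Under the replicate block the ratios of XRCC5 to XRCC6 (-0.18), XRCC4 to LIG4 (-0.89) and TP53BP1 to BRCA1 (-0.66) had an exact permutation p of 0.125, the smallest that 4 pairs allow.

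With 1 library left out, the genes called ranged from 8899 to 10156. Members called higher were 2 to 3, since PRKDC joined without the first high glucose library. The differences of the members that were not called ranged from -0.03 to -0.0014 for XRCC5, 0.073 to 0.23 for PRKDC, -0.045 to 0.11 for DCLRE1C, -0.26 to -0.12 for XRCC4 and -0.073 to 0.0031 for NHEJ1, so that DCLRE1C and NHEJ1 have no settled sign. The ratio of POLL to POLM ranged from -0.51 to -0.29. Depth was lowest for XRCC4, whose 64 to 107 reads left an interval of -0.48 to 0.13. The causes of these shifts were not tested.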
